A study of Mus musculus with 45 samples.

Results

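A group of 5 receptor genes of bone marrow-derived macrophages was examined, Fpr1, Fpr2, Gpr84, Gpr55 and Hrh2, out of the 29307 genes of the count table. They were chosen by measured values, because in M1 macrophages they were higher in p284R than in p254I libraries, so that this difference is a description here and carries no test. All 5 symbols were found in the deposited tables, and all 5 were among the 12905 genes that passed the low-count filter of edgeR. Each had reads in every M0 and M1 library.

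The macrophages came from C57BL/6N mice, 6 to 10 weeks old, that carry 1 of 3 variants of Famin, the gene listed as Lacc1 that encodes a purine-metabolizing enzyme. The mice were engineered with the human variants, of which p254I is the non-risk form, p254V the form that raises disease risk and p284R the form of a monogenic disease, in the germline and so in all cells. Marrow was grown for 6 days with M-CSF, then left unstimulated (M0) or polarized with IFN-γ and LPS (M1) or with IL-4 (M2), and mRNA of 5 replicates in each of the 9 groups, 45 libraries in all, was sequenced. The labels number the replicates 1 to 5 in each group but do not say whether a number marks a mouse, so p-values measure the spread between these libraries, which may be technical.

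All 5 genes encode G protein-coupled receptors with 7 membrane-spanning helices, and each reads a small molecule or peptide outside the cell. Fpr1 and Fpr2 are the formyl peptide receptors, which detect N-formylated peptides released by bacteria and mitochondria and guide phagocytes toward them, and Fpr2 also binds annexin A1 and serum amyloid A. Gpr84 responds to medium-chain fatty acids and couples to Gi proteins, Gpr55 responds to lysophosphatidylinositol, and Hrh2 is the H2 histamine receptor, which couples to Gs proteins and raises cyclic AMP. Formyl peptide receptors and Gpr84 are known as receptors of phagocytes that rise on exposure to bacterial products.

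In the mm10 assembly with GENCODE annotation, Fpr1 (ENSMUSG00000045551) lies on chromosome 17 from 17876471 to 17883940 on the minus strand and Fpr2 (ENSMUSG00000052270) on chromosome 17 from 17887824 to 17893952 on the plus strand. The annotated starts of this pair lie head to head, 3883 bases apart. Gpr84 (ENSMUSG00000063234) lies on chromosome 15 from 103308235 to 103310612 on the minus strand, Gpr55 (ENSMUSG00000049608) on chromosome 1 from 85938318 to 85961007 on the minus strand, and Hrh2 (ENSMUSG00000034987) on chromosome 13 from 54192129 to 54236180 on the plus strand. Some of their exonic sequence is not unique at the read length of 50 bases. For Fpr2, 31.5% of the 50-base words also occur in another gene, mostly in Gm5966, which was not analysed here, and Fpr3, and for Gpr84 37.8% lie under Gm49482 on the opposite strand, which was not analysed here. These shares were 0.08% for Fpr1, 0.65% for Gpr55 and 1.69% for Hrh2. The library kit keeps strand, but whether the counting used it is not given in the sources used here, so values of Fpr2 and Gpr84 are uncertain to that extent.

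The stretch of 250 bases before the RefSeq start (GRCm38.p6) is shown for 4 of the 5 genes, 5′ to 3′ on the strand of the gene, with capitals for every match to a searched motif. The motifs, on both strands, were the κB motif of NF-κB, TTCNNNGAA for STAT factors, the tandem GAAA motif of IRF factors, TGANTCA for AP-1 and GAGGAA for PU.1. The windows are chr17:17883940-17884189 for Fpr1, chr17:17887574-17887823 for Fpr2, chr1:85961056-85961305 for Gpr55 and chr13:54191879-54192128 for Hrh2.
Fpr1: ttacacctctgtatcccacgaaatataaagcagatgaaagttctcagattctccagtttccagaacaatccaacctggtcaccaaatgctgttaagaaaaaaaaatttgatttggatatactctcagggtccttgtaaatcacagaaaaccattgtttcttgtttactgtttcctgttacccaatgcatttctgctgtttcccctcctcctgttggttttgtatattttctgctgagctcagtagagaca
Fpr2: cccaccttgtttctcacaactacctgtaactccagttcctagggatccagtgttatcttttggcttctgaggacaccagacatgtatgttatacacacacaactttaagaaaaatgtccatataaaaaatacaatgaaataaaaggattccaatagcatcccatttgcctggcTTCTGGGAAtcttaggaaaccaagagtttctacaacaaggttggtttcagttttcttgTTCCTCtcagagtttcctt
Gpr55: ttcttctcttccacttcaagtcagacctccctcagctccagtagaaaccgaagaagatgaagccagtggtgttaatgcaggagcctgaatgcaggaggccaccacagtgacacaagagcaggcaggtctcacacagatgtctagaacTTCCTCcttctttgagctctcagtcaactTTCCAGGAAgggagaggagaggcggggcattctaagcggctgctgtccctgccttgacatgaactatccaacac
Hrh2: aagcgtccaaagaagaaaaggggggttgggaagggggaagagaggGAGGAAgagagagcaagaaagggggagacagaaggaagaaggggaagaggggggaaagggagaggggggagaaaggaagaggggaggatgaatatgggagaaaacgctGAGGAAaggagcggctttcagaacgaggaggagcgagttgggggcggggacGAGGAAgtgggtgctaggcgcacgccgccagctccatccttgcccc
The STAT-type motif occurs once before Fpr2, at bases -77 to -69 from the start, and once before Gpr55, at -74 to -66. It is found in 7.02% of the 32851 promoter windows of this length. The PU.1-type motif occurs once before Fpr2, once before Gpr55 and 3 times before Hrh2, and is found in 23.3% of all windows. None of the 5 motifs occurs before Fpr1. The NF-κB, IRF and AP-1 motifs, which 3.86%, 2.98% and 6.75% of windows hold, are in none of the 4 sequences. The RefSeq start of Gpr55 lies 48 bases before the GENCODE start. The Gpr84 window is not shown because its RefSeq start lies 174 bases inside the GENCODE transcript.

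Total counts ranged from 17239009 to 43740283 per library with a median of 27553642, and levels are given as CPM, the read count scaled to the TMM-adjusted library size. The macrophage markers Adgre1, Csf1r, Cd68, Mertk, Fcgr1 and Itgam all averaged at least 1 CPM in each of the 9 groups. The 4 IL-4 genes Arg1, Retnla, Chil3 and Mrc1 were all called higher in M2 than in M0 macrophages, and the 10 tested of 12 M1 genes were all called higher in M1. In edgeR's quasi-likelihood fit of the 9 groups a gene was called when its Benjamini-Hochberg adjusted p over the 12905 genes was under 0.05.

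Averaged over genotypes, all 5 receptor mRNAs were called higher in M1 than in M0 macrophages. In M1 against M0 macrophages Hrh2 was 18.9-fold higher (log2 fold change 4.24, SE 0.17, adjusted p = 2.7e-24), Fpr2 15.6-fold (3.97, SE 0.30, adjusted p = 2.7e-15), Gpr55 10.97-fold (3.46, SE 0.28, adjusted p = 2.6e-14), Fpr1 3.45-fold (1.78, SE 0.29, adjusted p = 8.0e-07) and Gpr84 2.01-fold (1.01, SE 0.26, adjusted p = 0.00066). For comparison, 37% of all genes tested were called higher and 40.3% lower, so a call in this contrast is common. The 15 M1 libraries include those that chose the genes. In a contrast over the p254I and p254V groups alone, an alternative chosen after seeing the data, 4 of the 5 calls held. In all, 9338 of the 12905 genes tested were called there, in either direction. The log2 fold changes of the 4 genes were 4.06 for Hrh2, 3.603 for Fpr2, 3.08 for Gpr55 and 1.26 for Fpr1. The largest adjusted p among them was 0.0022. Gpr84 came to 0.37 (SE 0.32, adjusted p = 0.30). The spread in this contrast was still estimated from all 45 libraries, and its p254I M1 libraries also took part in choosing the genes.

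Hrh2 measured 1.18, 2.02 and 2.81 CPM (lowest, median and highest of 15) in M0 libraries and 14.7, 34.4 and 71.4 CPM in M1 libraries. The groups did not overlap, and Hrh2 was higher in M1 in 15 of 15 sets of libraries that share genotype and number. Fpr2 ranged from 0.527 to 2.82 CPM (median 1.32) in M0 and from 3.66 to 84.2 CPM (median 16.8) in M1 libraries. Gpr55 ranged from 0.207 to 1.05 CPM (median 0.614) in M0 and from 1.89 to 21.98 CPM (median 5.92) in M1 libraries. For these 3 genes all 15 M1 libraries lay above all 15 M0 libraries, as did 15.2% of all genes tested.

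Fpr1 and Gpr84 overlapped between M0 and M1 libraries. Fpr1 ran from 0.308 to 2.19 CPM (median 0.939) in M0 and from 0.744 to 19.7 CPM (median 2.77) in M1 libraries, and 13 of 15 sets had more in M1. Gpr84 ran from 1.35 to 4.004 CPM (median 2.53) in M0 and from 1.27 to 19.8 CPM (median 3.10) in M1 libraries, again higher in 13 of 15 sets. Taken by genotype, the Gpr84 log2 fold change of M1 against M0 was 0.31 (SE 0.46) in p254I, 0.44 (SE 0.46) in p254V and 2.28 (SE 0.45) in p284R. The difference between these genotype values was not tested apart from the contrasts within M1.

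**Figure D1:**
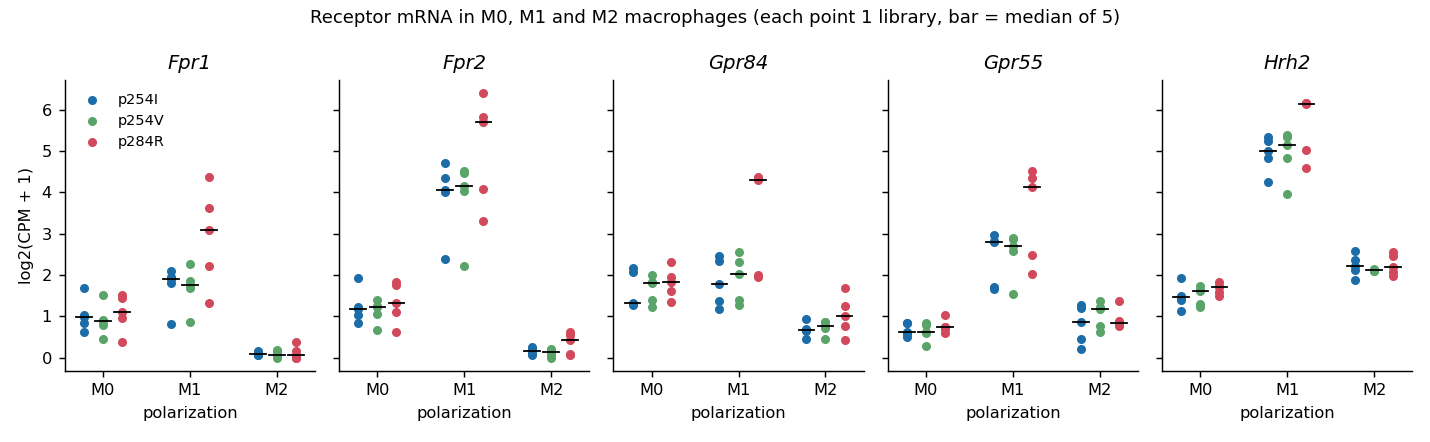
Levels of the 5 receptor mRNAs as log2(CPM + 1) on the vertical axis in the 45 libraries, by polarization on the horizontal axis and by genotype in colour. Each point is 1 library and each bar the median of 5 libraries. Hrh2, Fpr2 and Gpr55 separate M1 from M0 completely, and Fpr1 and Fpr2 lie near 0 in M2.

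The IL-4 response differed in direction between the receptors. Compared with M0, M2 macrophages had less Fpr1 (log2 fold change -3.76, SE 0.46, adjusted p = 1.9e-09), less Fpr2 (-3.30, SE 0.49, adjusted p = 1.3e-07) and less Gpr84 (-1.59, SE 0.30, adjusted p = 8.1e-06), and each of these 3 was lower in 15 of 15 sets. Hrh2 rose 1.84-fold (0.88, SE 0.17, adjusted p = 1.8e-05) and was higher in 15 of 15 sets. Gpr55 was higher in 12 of 15 sets but did not pass the test (0.61, SE 0.31, adjusted p = 0.070). Of all genes tested, 39.6% were called lower and 36.8% higher in this contrast.

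Few formyl peptide receptor reads were counted in M2. All 15 M2 libraries together held 30 reads of Fpr1 and 65 reads of Fpr2, against 478 and 641 in the 15 M0 libraries, and 3 M2 libraries had no Fpr1 read and 1 had no Fpr2 read. Fpr1 lay between 0 and 0.288 CPM in M2, below every M0 library, as 9.78% of genes tested did. Fpr2 lay between 0 and 0.541 CPM in M2, which just overlaps its lowest M0 value of 0.527 CPM. Gpr84 fell to between 0.346 and 2.20 CPM (median 0.690) and overlapped with M0. Hrh2 measured 2.69 to 4.98 CPM (median 3.39) and Gpr55 0.149 to 1.60 CPM (median 0.811), both overlapping with M0.

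Set directly against each other, M1 macrophages had more of all 5 than M2 macrophages. The log2 differences were 7.26 (SE 0.41) for Fpr2, 5.55 (SE 0.42) for Fpr1, 3.36 (SE 0.16) for Hrh2, 2.85 (SE 0.27) for Gpr55 and 2.60 (SE 0.29) for Gpr84, with a largest adjusted p of 1.9e-10. In this contrast 39% of genes tested were called higher. The 15 M1 libraries include those that chose the genes. An alternative over the p254I and p254V groups alone was chosen after seeing the data. Its log2 differences were 7.29 for Fpr2, 5.03 for Fpr1, 3.13 for Hrh2, 2.36 for Gpr55 and 2.16 for Gpr84. The p254I M1 libraries in it also took part in choosing the genes. The M1 libraries all lay above the M2 libraries for Fpr1, Fpr2, Gpr55 and Hrh2, as for 17.6% of genes tested, but not for Gpr84.

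Levels were compared between genes only after division by exonic length. Over the 15 M0 libraries of the 3 genotypes together the medians were 1.46 CPM per kb for Gpr84, 1.02 for Fpr2, 0.709 for Fpr1, 0.341 for Hrh2 and 0.165 for Gpr55. In M1 macrophages the order became Fpr2 with 12.96 CPM per kb, Hrh2 with 5.79, Fpr1 with 2.09, Gpr84 with 1.80 and Gpr55 with 1.59. In M2 macrophages Hrh2 led with 0.571 CPM per kb, followed by Gpr84 with 0.400, Gpr55 with 0.218, Fpr2 with 0.0855 and Fpr1 with 0.0376. The M1 order was not that of each genotype, since the p284R M1 mean was 7.395 CPM per kb for Gpr84 and 6.61 for Fpr1, against 1.61 and 1.83 in p254I. Every pair of neighbours in these 3 orders had overlapping ranges over the 15 libraries.

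The M1 difference that chose the genes was largest in 3 of the 5 p284R libraries. In replicates 1 to 5, Gpr84 measured 1.27, 1.58, 4.52, 2.44 and 4.06 CPM in p254I, 1.41, 1.63, 3.96, 3.10 and 4.86 CPM in p254V, and 2.85, 2.99, 19.3, 19.8 and 18.8 CPM in p284R. Replicates 3, 4 and 5 of p284R lay above every other M1 library, whereas replicates 1 and 2 lay within the range of the other genotypes. The log2 fold change of p284R against p254I was 2.21 (SE 0.45), which is 4.61-fold.

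The formyl peptide receptors showed the same arrangement. Fpr1 measured 2.77, 0.744, 3.25, 2.48 and 2.87 CPM in p254I, 2.20, 0.814, 3.83, 2.60 and 2.36 CPM in p254V, and 3.68, 1.496, 19.7, 11.3 and 7.54 CPM in p284R, with a log2 fold change of p284R against p254I of 1.86 (SE 0.48). Fpr2 measured 15.03, 4.20, 19.2, 15.6 and 25.5 CPM in p254I, 15.5, 3.66, 21.97, 16.8 and 21.03 CPM in p254V, and 16.1, 8.94, 84.2, 55.6 and 51.6 CPM in p284R, with a log2 fold change of 1.45 (SE 0.43). Replicate 2 was the lowest of its genotype for both genes in all 3 genotypes, and replicates 3, 4 and 5 of p284R were the highest of the 15 libraries.

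Gpr55 and Hrh2 had the same 3 libraries on top. Gpr55 measured 6.86, 2.26, 5.92, 2.18 and 6.06 CPM in p254I, 5.46, 1.89, 6.49, 6.30 and 4.96 CPM in p254V, and 4.63, 3.08, 21.98, 19.6 and 16.5 CPM in p284R, with a log2 fold change of 1.502 (SE 0.41). Hrh2 measured 31.1, 18.1, 39.8, 27.7 and 36.8 CPM in p254I, 27.5, 14.7, 41.2, 34.4 and 39.9 CPM in p254V, and 31.6, 23.2, 71.4, 69.7 and 71.4 CPM in p284R, with a log2 fold change of 0.80 (SE 0.24). Across all genes tested, 0.263% were called in this contrast, with 34 genes in all, and nothing is read from it for the 5 genes, since it chose them.

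**Figure D2:**
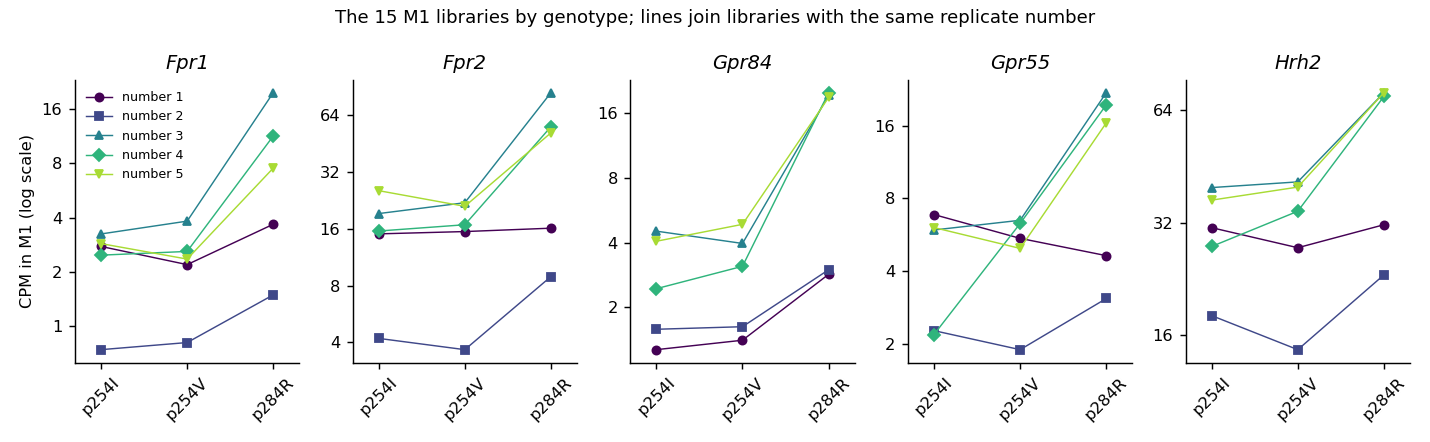
CPM of the 5 receptor mRNAs in the 15 M1 libraries on a log scale, by genotype on the horizontal axis. Each point is 1 library, and lines join libraries with the same replicate number. In p284R numbers 3, 4 and 5 are the highest of the 15 libraries for each of the 5 genes, and numbers 1 and 2 lie within the range of the p254I and p254V libraries.

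Compared within a replicate number, Gpr84 was 2.24, 1.89, 4.26, 8.12 and 4.65 times its p254I level in p284R replicates 1 to 5, and Hrh2 was 1.02, 1.29, 1.80, 2.52 and 1.94 times its p254I level. Fpr1 and Fpr2 were likewise above the p254I library of the same number in 5 of 5 numbers, with ratios from 1.33 to 6.07 and from 1.07 to 4.37. Gpr55 was above it in 4 of 5, with ratios from 0.675 to 8.97. These ratios belong to the contrast that chose the genes, so they are a description with no test. The share of all genes that were higher in 5 of 5 numbers was not computed.

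Library depth and the Famin transcript were set beside these values. The deepest and the shallowest M1 libraries, with 36892515 and 17239009 counts, are both p284R, replicates 4 and 5, and both are among the 3 high libraries. Lacc1 measured 396, 263, 218, 584 and 553 CPM in p284R M1 replicates 1 to 5, against 486 to 523 CPM in p254I and 533 to 597 CPM in p254V. Its lowest and its highest p284R values in M1 both fell in libraries that were high for the receptors. In p284R replicates 1 to 5 Lacc1 measured 119, 108, 91, 169 and 160 CPM in M0. In M2 the values were 122, 56.8, 66.6, 199.5 and 174.6 CPM. Replicates 1 to 3 thus lay below 4 and 5 in each polarization, and a relation to the receptors was not tested. A missense variant need not change its own mRNA, so Lacc1 does not check the labels.

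Neutrophils and monocytes also carry formyl peptide receptors, so markers of other cell types were measured, though no list for monocytes was used. The 12 neutrophil markers summed to 207, 230, 206, 166 and 155 CPM in p284R M1 replicates 1 to 5, to 147 to 246 CPM in p254I and to 153 to 193 CPM in p254V. The 3 libraries with the highest receptor levels had the 3 lowest of the 5 p284R sums, but replicates 3 and 1 were nearly equal, at 206 and 207 CPM. Replicate 2, the lowest library of each genotype for Fpr1, Fpr2 and Hrh2, had the highest sum in each genotype, and the part of these cells in the receptor values was not tested. Of the 12 markers 7 averaged at least 1 CPM. Csf3r, which monocytes also carry, had a median of 97.6 CPM in M1, followed by S100a9 with 28.2, S100a8 with 15.6, Ngp with 14.8 and Ltf with 9.79 CPM. Ly6g and Elane stayed at or below 0.859 CPM in all 45 libraries. The mast cell and basophil markers, for cells that carry histamine receptors, summed to 0.309 to 1.0 CPM in the M1 libraries, and Mcpt4 and Tpsb2 were at 0 in all of them. The 6 dendritic cell markers summed to 5.3 to 11.6 CPM in M1 libraries against 0.516 to 1.75 CPM in M0, with Xcr1 alone at a median of 8.17 CPM in M1. Their part in the M1 difference was not tested. The 5 lymphocyte markers summed to 0.074 to 0.502 CPM in the M1 libraries. In bulk RNA, fewer cells that express a receptor and less receptor RNA per cell cannot be told apart.

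The p284R variant was then compared with p254V within M1. This contrast shares the 5 p284R libraries with the one that chose the genes, so its tests are not independent support. Gpr84 was 4.25-fold higher in p284R (log2 fold change 2.09, SE 0.45, adjusted p = 0.048) and was called, while Fpr1 (1.89, SE 0.48, adjusted p = 0.14), Gpr55 (1.39, SE 0.41, adjusted p = 0.33), Fpr2 (1.45, SE 0.43, adjusted p = 0.35) and Hrh2 (0.76, SE 0.24, adjusted p = 0.44) were not. Among all genes tested 0.0775% were called. With the replicate number as a block all 5 were called (adjusted p = 1.2e-05 for Gpr84, 0.00046 for Fpr1, 0.0012 for Fpr2, 0.0013 for Hrh2 and 0.016 for Gpr55). The block raised the number of genes called from 10 to 325 of the 12905 tested, so the 0.0775% is not its share. The Gpr84 call of the unblocked fit was lost without replicate 3 (adjusted p = 0.73), 4 (0.99) or 5 (0.57). Two-sided exact permutation tests of 5 against 5 libraries gave p from 0.079 to 0.14 for the 5 genes, where 0.0079 is the smallest p possible. They ignore the pairing of libraries by number.

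None of the 5 genes was called in the other 3 genotype contrasts tested. Between p254V and p254I within M1, a contrast that shares the p254I libraries with the one that chose the genes, the log2 fold changes lay between -0.03 for Fpr1 and 0.12 for Gpr84, with 95% intervals from -0.98 to 0.92 for Fpr1, -0.85 to 0.84 for Fpr2, -0.77 to 1.01 for Gpr84, -0.69 to 0.92 for Gpr55 and -0.43 to 0.52 for Hrh2 (adjusted p = 1 for each). These intervals come from the fit without the replicate block and so ignore the pairing by number. With the block the SE was 0.279 for Fpr1, 0.223 for Fpr2, 0.242 for Gpr84, 0.302 for Gpr55 and 0.126 for Hrh2. Without it the SE was 0.483, 0.432, 0.454, 0.412 and 0.242 in the same order. edgeR called 0% of genes in this contrast, with 120 genes at an unadjusted p under 0.05, and DESeq2 called 3.

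In M0 macrophages p284R and p254I differed by log2 fold changes from 0.14 for Fpr1 to 0.26 for Hrh2 (adjusted p = 1 for each), and 95% intervals reached from -0.88 to 1.17 for Fpr1 and from -0.35 to 0.87 for Hrh2. These intervals, too, are from the fit without the block, and with the block the SE was 0.318 for Fpr1 and 0.202 for Hrh2. In M0 edgeR called 0% of genes, with 140 at an unadjusted p under 0.05 and 1 called by DESeq2. In M2 macrophages the log2 fold changes were 1.21 (SE 1.13) for Fpr2, 0.89 (SE 0.56) for Gpr84, 0.35 (SE 1.21) for Fpr1, 0.18 (SE 0.52) for Gpr55 and 0.02 (SE 0.28) for Hrh2 (adjusted p = 1 for each), with 0.00775% of genes called (1 gene, and 148 at an unadjusted p under 0.05, with 2 called by DESeq2). The study's own list of genes, made on these same libraries, contains all 5, so these contrasts are not independent of that choice either. Two-sided exact permutation tests of these 3 contrasts, which ignore the pairing by number, gave p of at least 0.16. Over the 20 tests run the Benjamini-Hochberg values were at least 0.48.

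**Figure D3:**
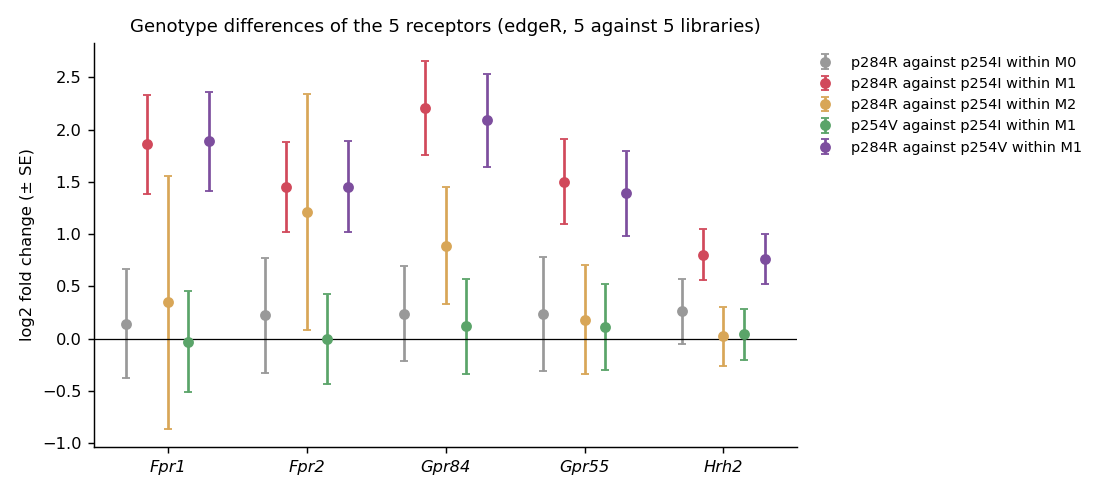
Log2 fold changes with SE from edgeR for the 5 receptors in 5 genotype contrasts of 5 against 5 libraries. The 2 contrasts with p284R M1 libraries lie between 0.76 and 2.21, and the other 3 between -0.03 and 1.21, with the widest errors for Fpr1 and Fpr2 in M2, where few reads were counted.

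Correlations of receptor levels among the M1 libraries of a genotype were examined as well. Because replicates 3, 4 and 5 of p284R stand apart, correlations were first taken over the 10 p254I and p254V M1 libraries, a choice made after seeing the data, on log2(CPM + 1) after removing each genotype's mean. Pearson's r over the 10 pairs of receptors ran from 0.39 for Gpr84 with Gpr55 to 0.96 for Fpr2 with Hrh2 (median 0.80), and Spearman's rho from 0.20 to 0.88. Shuffling libraries within genotype, 8 of 10 pairs had a Benjamini-Hochberg adjusted permutation p under 0.05 for r and 5 of 10 for rho. The share of all gene pairs that would pass was not computed. Libraries with the same number deviate together, however, and in an exact permutation of the 5 numbers, the same in both genotypes, the adjusted p was 0.062 at best for r and 0.083 for rho, so that 0 of 10 pairs passed (5 had an unadjusted p under 0.05 for r). Without the 2 libraries farthest from the median, r fell to 0.50 from 0.95 for Fpr1 with Fpr2 and to 0.30 from 0.79 for Fpr2 with Gpr55, so these relations rest in part on those libraries. For Gpr84 with Gpr55 it rose to 0.87.

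Over all 15 M1 libraries with genotype means removed, r ran from 0.79 for Gpr84 with Gpr55 to 0.97 for Fpr2 with Hrh2, with a median of 0.90, and rho from 0.73 to 0.93. The genes were chosen for a contrast in which replicates 3, 4 and 5 of p284R were high, and those libraries enter these values, so they are a description with no test. Without the 2 farthest libraries r ran from 0.69 to 0.96. With the mean of each replicate number removed as well, r still ran from 0.71 to 0.93 (median 0.84). High r was common in these libraries. With genotype means removed, the 95th percentile of r over the 12904 other genes was 0.758 for Fpr1, 0.791 for Fpr2 and 0.696 for Gpr84. It was 0.72 for Gpr55 and 0.778 for Hrh2. The share of genes that reached a receptor's median r with the other receptors ran from 0.294% for Fpr1 to 1.91% for Gpr84. By r with Fpr2, Gpr84 ranked 508th.

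**Figure D4:**
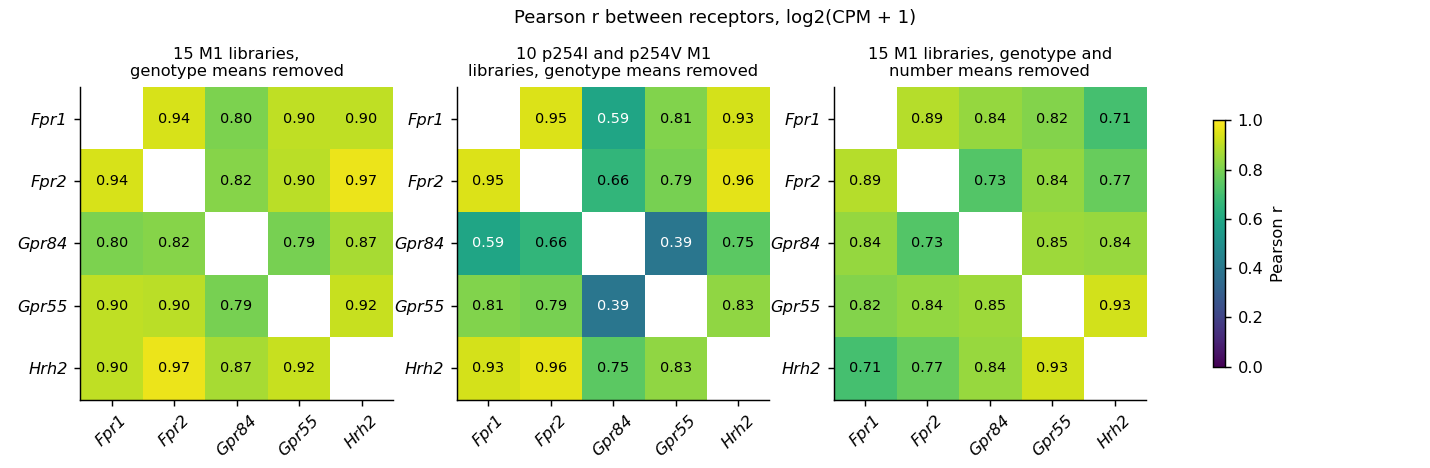
Pearson r between each pair of receptors in M1 libraries on log2(CPM + 1), as numbers and colour from 0 to 1. The left panel uses 15 libraries with genotype means removed, the middle panel the 10 p254I and p254V libraries, and the right panel 15 libraries with genotype and number means removed. Gpr84 has the lowest values in the middle panel, at 0.39 with Gpr55 and 0.59 with Fpr1.

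The share of this spread that lay between replicate numbers was computed as well. Within genotypes, 88.8% of the M1 sum of squares of Fpr2, 87.9% of Hrh2, 80.3% of Gpr84, 78.3% of Fpr1 and 58.9% of Gpr55 lay between numbers (median over all genes tested 59.1%). These shares, too, include the 3 high p284R libraries and are a description. Replicate 2 was the lowest library of each genotype for Fpr1, Fpr2 and Hrh2, and over the genotypes it stood at 0.24 times the level of the other numbers for Fpr2 and 0.461 times for Hrh2 on the scale of CPM + 1. For Gpr84 replicate 1 was the lowest in each genotype, and for Gpr55 replicate 4 in p254I and replicate 2 in p254V and p284R.

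The genes closest to each receptor over the 15 M1 libraries were listed by r, as a description of these libraries. For Fpr1 they were N4bp1 and Crlf3 (r = 0.95 for both), Tcp11l1, Tdrd7 and Fpr2 itself. For Fpr2 they were Ifi205, an interferon-inducible gene (r = 0.98), Crk, an adaptor of cell migration, the lysosomal phosphatase Acp2, Pilra and the lipid phosphatase Mtm1. For Hrh2 they were Acp2 (r = 0.98), the protein C receptor Procr, Fpr2, Ifi205 and the kinase Map2k1. For Gpr84 they were Tarm1, a leukocyte immunoglobulin-type receptor (r = 0.97), the membrane protease Mmp14, the chemokine Cxcl16, Card19 and Mir155hg, the host transcript of miR-155. For Gpr55 they were Mag, the ATP-gated channel P2rx4, Tcp11l1, Heatr9 and the cytokine receptor chain Il2rg, with r from 0.94 to 0.95. Over the 10 p254I and p254V libraries r for these 25 pairings ran from 0.86 to 0.98. These 10 are among the 15 libraries that picked the neighbours, so this range is no check of them.

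The receptors were also set against genes that define the M1 state. Of the 12 listed, Nos2, Cxcl9, Cxcl10, Cxcl11, Acod1, Il1b, Tnf, Ptgs2, Cd40 and Irf1 were tested, with log2 fold changes of M1 against M0 from 1.26 (SE 0.268) for Il1b to 12.5 (SE 0.314) for Cxcl9, and Il6 and Il12b did not pass the filter. The median r over these 10 genes was 0.80 for Fpr1, 0.83 for Fpr2, 0.86 for Gpr84, 0.81 for Gpr55 and 0.86 for Hrh2 over the 15 M1 libraries, which include the 3 high p284R libraries. Over the 10 p254I and p254V libraries the medians were 0.84 for Fpr1, 0.80 for Fpr2, 0.56 for Gpr84, 0.69 for Gpr55 and 0.81 for Hrh2. Acod1, which makes itaconate, had r of 0.96 with Gpr84 and 0.96 with Hrh2 over 15 libraries and 0.87 and 0.95 over 10. Nos2, the inducible nitric oxide synthase, had 0.93 with Hrh2 and 0.79 with Gpr84 over 15 libraries and 0.89 and 0.53 over 10. Irf1, an interferon-induced transcription factor, had the lowest r with each receptor, from 0.21 with Gpr84 to 0.49 with Fpr1 over 15 libraries and from -0.65 with Gpr84 to -0.15 with Fpr1 over 10. Cd40 with Gpr55 went from 0.67 to 0.087. In p284R M1 replicates 1 to 5 Nos2 measured 25.6, 8.60, 81.5, 149 and 131 CPM and Acod1 255, 234, 1186, 1343 and 1325 CPM. Replicates 3, 4 and 5 were thus the highest of the 15 M1 libraries for Nos2 and Acod1 as well. Between p284R and p254V within M1 the 10 genes differed in log2 fold change. Values ran from 0.004 for Il1b and 0.05 for Irf1 to 2.25 for Nos2, with a median of 0.86. Nos2 was the only one of the 10 called in that contrast (log2 fold change 2.25, adjusted p = 0.033), where 0.0775% of all genes tested were called.

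Ligands of the formyl peptide receptors moved in both directions in M1. Of 6 listed ligand genes 3 were tested. Anxa1, which encodes annexin A1, was lower (log2 fold change -2.41, SE 0.06) at a median of 342 CPM in M1 against 1840 CPM in M0, and Camp, the cathelicidin gene, was lower (-1.25, SE 0.325). Saa3, a serum amyloid A gene, was higher (2.89, SE 0.58), at a median of 67.1 CPM in M1 against 3.67 CPM in M0. In M2 Anxa1 was called higher (1.04, SE 0.06) and Camp lower (-2.40, SE 0.355). Saa1 and Saa2 stayed at or below 0.117 CPM, and Fam3d was not analysed here. Fpr3, the neighbour that shares exonic bases with Fpr2, had 3 reads in all 45 libraries, and Fpr-rs3, Fpr-rs4, Fpr-rs6 and Fpr-rs7 were not analysed here.

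Around the histamine receptor, Hdc, which makes histamine, was called higher in M1 (2.46, SE 0.21) but reached only 2.73 CPM at the median. Hnmt, which inactivates histamine, was called lower (-1.73, SE 0.06), from a median of 29.8 to 9.25 CPM. Hrh1 was called lower in M1 (-0.655, SE 0.17) and stayed below 1 CPM, and Hrh3 and Hrh4 were at or near 0, with at most 0.132 CPM. Aoc1 and the transporter Slc29a4 did not pass the filter. In M2 Hdc, Hnmt and Hrh1 were all called lower.

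Of the enzymes around lysophosphatidylinositol, the ligand of Gpr55, Pla2g4a, the cytosolic phospholipase A2, was called higher in M1 (3.17, SE 0.09), at a median of 156 CPM against 16.7 CPM in M0. Ddhd1, a phospholipase that can form the ligand, was called lower (-0.31, SE 0.13), and Mboat7, which turns the ligand back into phosphatidylinositol, was called lower by a small amount (-0.19, SE 0.04). In M2 Ddhd1 (1.28, SE 0.13) and Pla2g4a (1.33, SE 0.09) were called higher.

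Among receptors for lipids and metabolites, 17 of 27 were tested, and 10 were called higher and 6 lower in M1 than in M0, with a median log2 fold change of 0.33. Large changes beside Gpr55 were those of S1pr1 (-5.19, SE 0.17), a receptor for sphingosine-1-phosphate, Gpr183 (-4.46, SE 0.17), which reads oxysterols, Gpr18 (3.58, SE 0.16) and Ffar4 (-2.71, SE 0.46), which reads long-chain fatty acids. Among chemoattractant receptors, 13 of 14 were tested, and 5 were called higher and 7 lower in M1, with a median log2 fold change of -0.88. Cx3cr1 (-5.97, SE 0.40), Cxcr4 (-4.65, SE 0.15) and the complement receptors C5ar1 (-2.10, SE 0.14) and C5ar2 (-1.76, SE 0.15) were lower. Over all genes tested the median log2 fold change was -0.03. Fpr1 and Fpr2 were called higher in M1, while 7 of the 11 other chemoattractant receptors tested were called lower.

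Including the single other histamine receptor tested, 27 receptors beside the 5 were plotted, of which 11 were called higher and 14 lower in M1. Of them 5 were called higher in M1 and lower in M2, as were Fpr1, Fpr2 and Gpr84, against 11.4% of all genes tested. These were Gpr132, Gpr65, Ffar2, Lpar1 and S1pr2, named after their values were seen. Lpar1, a receptor for lysophosphatidic acid, had log2 fold changes of 2.56 (SE 0.16) in M1 and -1.90 (SE 0.19) in M2. Beside Gpr84, none of the lipid, metabolite, chemoattractant and histamine receptors was called between p284R and p254V within M1. Of all genes tested 0.0775% were called there. Gpr84 was chosen by its high p284R values in M1, and its call was lost in several other settings. It is therefore not set apart from the other receptors by this call.

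**Figure D5:**
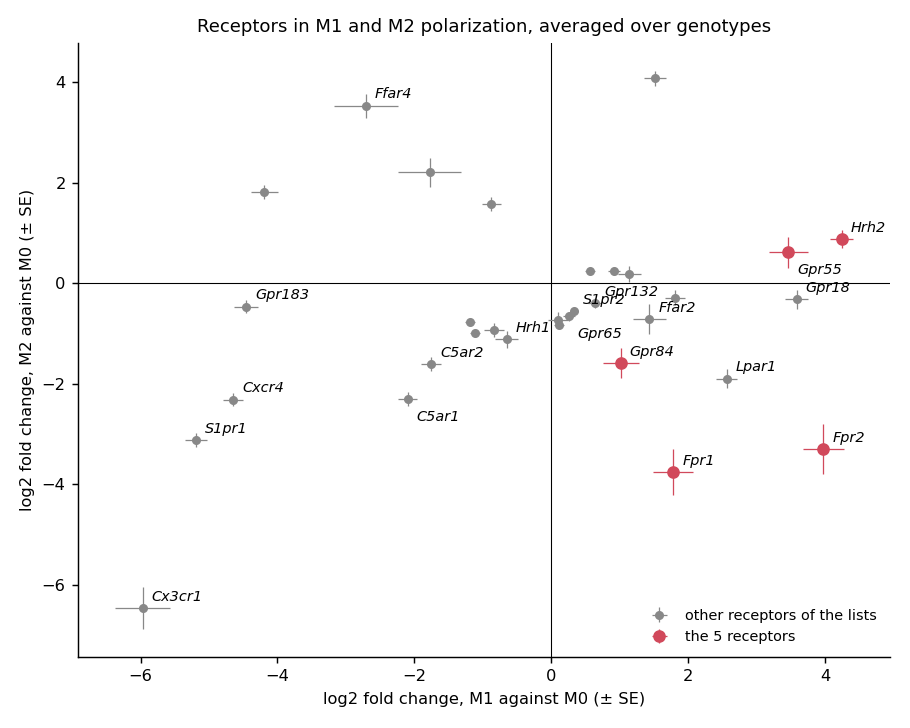
Log2 fold changes with SE of 32 receptors in M1 against M0 on the horizontal axis and in M2 against M0 on the vertical axis, averaged over genotypes. The 5 receptors are in red and lie to the right, with Fpr1, Fpr2 and Gpr84 below 0 in M2 and Hrh2 and Gpr55 above.

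Genes of G proteins and their regulators were set beside the receptors. Of 32 listed G protein signalling symbols 30 were tested, and 14 were called higher and 12 lower in M1, with a median log2 fold change of 0.03. The largest changes were in Rgs16 (-5.66, SE 0.37) and Rgs18 (-2.06, SE 0.11), which shorten G protein signals, in Pik3cg (-1.67, SE 0.08) and Pik3r5 (-0.69, SE 0.08), which form the phosphoinositide kinase downstream of Gi-coupled receptors, in the phospholipase Plcb2 (1.19, SE 0.11) and in Rgs1 (0.82, SE 0.15). None of the 30 was called between p284R and p254V within M1, where 0.0775% of all genes tested were called.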

How the data were processed

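The raw read counts per Ensembl gene were used as deposited, from 45 libraries of single-end reads of 50 bases. Per the processing notes and the methods, the authors trimmed reads with Trim Galore and aligned them to mm10 with HISAT2, while the series text names Cutadapt and STAR. The counting tool, annotation and strand setting are not given in the sources used here. A CPM table deposited by the authors, for 11900 genes, gave the gene symbols, and 100% of its values came out as whole reads equal to the counts (tolerance 0.01 reads). The count test on these reads called 35 genes between p284R and p254I and 13 between p284R and p254V within M1.

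Counts of 12905 genes that passed filterByExpr were fitted with edgeR 4.0.16 (R 4.3.3) as 9 groups of 5 with TMM scaling, the robust quasi-likelihood test and Benjamini-Hochberg adjustment. The fit was tested on simulated data. TMM factors ran from 0.9387 to 1.103. Alternatives were DESeq2 1.42.0, limma-voom (limma 3.58.1), other filters, a block and left-out replicates. Exact permutation tests and correlations used log2(CPM + 1) in SciPy 1.17.1, with 100000 resamples where not exact. Gene positions came from GENCODE, which matched 29146 of 29307 genes, and promoters from RefSeq.

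Same-numbered libraries deviated together in M0 (15 of 15 pairs with r over 0.1, from 0.111 to 0.847) and M1 (15 of 15, from 0.228 to 0.854), less so in M2 (13 of 15), over 9522 genes, so the numbers were taken as pairing the libraries from the data. For libraries of the same genotype and number across polarizations r was over 0.1 in 38 of 45 pairs.

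The 5 genes and the gene lists were chosen with earlier results of these data known. Text names all 5 genes, the 5 genes of highest r with each, every gene of a list of up to 12, otherwise the 6 called genes of largest M1 change, and list genes called between genotypes, apart from 1 receptor that is counted in its list but not reported here. Total counts per library, from 17239009 to 43740283, limit the precision of the low genes in M2.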

Additional observations from a re-analysis of the deposited data

Results flagged for a closer look

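Of 45 sets of 5 libraries examined for a library far from the others, 4 stood out, where chance flags about 1 in 20. The lowest library lay apart from the other 4 for Fpr1 in p254I M1 macrophages (replicate 2, 0.744 CPM), for Fpr2 in p254V M1 macrophages (replicate 2, 3.66 CPM) and for Gpr55 in p254V M1 macrophages (replicate 2, 1.89 CPM). The highest library lay apart for Gpr55 in p284R M2 macrophages (replicate 1, 1.57 CPM). The 3 low values all belong to replicate 2 of M1.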

How the results depend on the processing

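Over 15 other settings, 470 of 501 values kept their direction and, where tested, their side of the threshold. Of the rest 7 lost the call, 5 gained it and 19 changed sign, all of these 19 uncalled with an adjusted p of 1. The 470 include 61 values of p284R against p254I within M1, the contrast that chose the genes, which had no test. With the replicate block, Fpr1 (1.70), Fpr2 (1.33), Gpr55 (1.28) and Hrh2 (0.73) were called between p284R and p254V within M1, and the block changed no other call of the 5 genes. These calls are not independent support, since the p284R libraries also took part in choosing the genes. The block called 325 of the 12905 genes tested in this contrast. The Gpr84 call in that contrast was lost with limma-voom (log2 fold change 1.76, adjusted p = 0.37), without a low-count filter (2.09, adjusted p = 0.084), in a fit of the 15 M1 libraries alone (2.08, adjusted p = 0.64) and without replicate 3, 4 or 5 (1.88 to 2.19 over the 5 left-out replicates). The cause was not tested. Gpr84 in M1 against M0 came to 0.37 (adjusted p = 0.30) in the contrast over p254I and p254V, chosen after seeing the data, with the spread of all libraries. DESeq2 called Gpr55 in M2 against M0 (0.60, adjusted p = 0.039). The median r of the 10 receptor pairs in M1 was 0.901, 0.839 with replicate number removed as a block and 0.802 over the 10 p254I and p254V libraries.

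Signs changed with limma-voom for Fpr1 between p284R and p254I in M2 (-0.51) and between p254V and p254I in M1 for Fpr1 (0.0114) and Fpr2 (0.0506), with the replicate block for Hrh2 between p254V and p254I in M1 (-0.0086) and in the fit of 15 libraries for Fpr2 (0.00058). Leaving out a replicate gave ranges across 0 between p284R and p254I in M0 for Fpr1 (-0.0932 to 0.56), Fpr2 (-0.0030 to 0.64) and Gpr55 (-0.0395 to 0.44), in M2 for Fpr1 (-0.77 to 0.76) and Hrh2 (-0.0776 to 0.12), and between p254V and p254I in M1 for Fpr1 (-0.15 to 0.0467), Fpr2 (-0.0777 to 0.10), Gpr55 (-0.16 to 0.26) and Hrh2 (-0.0275 to 0.0872).

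The number of genes called between p284R and p254V within M1 was 10, and 21 with DESeq2, 0 with limma-voom, 4 without a filter, 325 with the block, 0 in the fit of 15 libraries, 18 without replicate 1, 25 without replicate 2 and 0 without replicate 3, 4 or 5. Between p284R and p254I within M1 it was 34, and 64, 11, 24, 343, 0, 50, 63 and 0 in the same order. A minimum of 10 counts in every library left Hrh2 alone of the 5 genes, so the others had no value there. Low counts limit Fpr1 and Fpr2 in M2, with at most 15 reads per library.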
